A study of Danio rerio with 10 samples.

Results

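The 7 genes described here are transcribed in embryonic red blood cells or act in their formation: the beta-type globin hbbe2, the alpha-type globins hbae3 and hbae1, the heme enzyme gene alas2, the membrane protein gene slc4a1a, the transcription factor gene gata1a and the zinc finger-like gene znfl2a. They were chosen by symbol. Each has 1 record in every file, so that they make up 7 of 15865 transcript records and 7 of 14563 gene symbols. All were measured in polyadenylated RNA of zebrafish embryos of the TL strain at 36 h after fertilisation. Mutants were homozygous (fn10a-/-) and came, with their siblings, from crosses between fn10a heterozygotes; the siblings are a mixture of fn10a+/- and fn10a+/+ embryos, and wild-type controls came from crosses within TL. There were 2 whole-embryo libraries in each of these 3 groups, of 30 embryos each, and 4 further libraries, 1 each, of nuclear and cytoplasmic RNA from mutants and from siblings, separated with the PARIS kit. The labels name no gene for the allele; from knowledge of the study it lies in eftud2, which encodes a GTPase of the spliceosome. The abundance of eftud2 was 11.3 and 3.60 RPKM in mutants, 28.1 and 9.91 RPKM in siblings and 30.2 and 10.5 RPKM in controls (replicates 1 and 2 of each), lowest in the mutant library of each replicate number.

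In zebrafish, as in other vertebrates, embryonic red cells carry hemoglobin made of alpha-type and beta-type globin chains, each holding a heme group, and embryonic globin genes are later replaced by adult ones. Heme synthesis in red cells starts with the enzyme encoded by alas2, and the anion exchanger band 3, encoded by slc4a1a, links the red cell membrane to its skeleton. The transcription factor encoded by gata1a is required for red cell formation and acts on globin and heme genes; zebrafish mutants of alas2, slc4a1a and gata1a are known for their anemia.

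The globin genes lie in 2 clusters on the danRer7 assembly. On chromosome 3, minus strand, hbae1 spans chr3:55972040-55972738 and hbae3 spans chr3:55998282-55999403, with 25543 bases between them, and 2 records of the beta-type globin hbbe1.1 flank hbae1 on the plus strand, at chr3:55965826-55966464 and chr3:55974349-55975111. On chromosome 12, minus strand, hbbe2 spans chr12:21702360-21703066 and lies 9323 bases from its neighbour hbbe3 at chr12:21691962-21693036. Of the other genes, alas2 lies at chr8:21891958-21907046, slc4a1a at chr3:19955146-19981240, gata1a at chr11:26345473-26352417 and znfl2a at chr2:161163-164959. The record named hbae1 in the files is called hbae1.1 in the current RefSeq table. Reads of near-identical copies may thus be divided between records or counted for several of them, and levels of hbae1 and hbbe1.1 are uncertain by that amount.

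Levels are given as the authors' RPKM, reads scaled by transcript length and by 1 total for each file. Whole-embryo libraries had between 34060890 and 82752349 reads on listed transcripts, and fraction libraries between 7164408 and 19195327. They were 54.2% to 58.7% of the authors' totals in whole-embryo replicate 1 and 31.6% to 33.7% in replicate 2, whose files also have another header. Replicate numbers separated the 6 whole-embryo libraries on the first principal component (60.0% of the variance) and mutants stood apart on the second (21.5%). Same-numbered libraries deviated together from their group means, with correlations across genes of 0.866 for mutants and siblings, 0.713 for mutants and controls and 0.757 for siblings and controls. Each comparison is therefore given from 2 fits of edgeR's quasi-likelihood test over 10147 genes, without and with a term for the replicate number, with Benjamini-Hochberg adjustment over all of them and a threshold of 0.05. The labels do not say whether the 2 libraries of a group came from separate clutches, so a p-value here reflects the variation between libraries, and that variation may be technical. Globin shares were lower in replicate 1 than in replicate 2 of every group: all globin records took 0.501% and 1.14% of listed reads in mutants, 0.941% and 2.31% in siblings and 0.593% and 2.42% in controls.

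The beta-type globin hbbe2 had the largest log2 difference between mutants and siblings among the 7 globin genes abundant enough to be tested. It had 30.3 and 12.6 RPKM in mutants, 80.6 and 56.0 RPKM in siblings and 61.9 and 67.2 RPKM in controls. Both mutant libraries lay below all 4 others, and siblings and controls overlapped. The means were 21.4 ± 12.5 RPKM in mutants, 68.3 ± 17.4 RPKM in siblings and 64.6 ± 3.78 RPKM in controls (SD, n = 2 each), from 706 to 6039 reads a library. The log2 fold change of mutants over siblings was -1.75 without the replicate term (edgeR adjusted p = 0.673) and -1.69 ± 0.36 (SE) with it (edgeR adjusted p = 0.0875), so that neither fit passed the threshold. It was -1.28 within replicate 1 and -2.20 within replicate 2. Over controls the change was -1.72 ± 0.36 with the term (edgeR adjusted p = 0.0662). In whole embryos, fewer red cells and less of a transcript in each red cell cannot be told apart, here and for the other members. Nor can transcripts of red cells be told from those of other tissues, here and in all that follows.

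The alpha-type globin hbae3 had 834 and 950.02 RPKM in mutants, 2176 and 1943 RPKM in siblings and 1315 and 2275 RPKM in controls. In RPKM the 2 mutant libraries lay close together and below all others, while the 2 control libraries spanned the siblings. On the scale of the fit, in TMM-scaled reads per 1000000, the mutant libraries were apart, at 741 and 1502, and mutant replicate 2 lay above control replicate 1 (1139). Its mean was 892 ± 82.3 RPKM in mutants, 2059 ± 165 RPKM in siblings and 1795 ± 679.5 RPKM in controls (SD, n = 2 each). The log2 fold change over siblings was -1.14 without the replicate term (edgeR adjusted p = 1.0) and -1.18 ± 0.24 (SE) with it (edgeR adjusted p = 0.0816). Within replicates 1 and 2 it was -1.26 and -1.08. Over controls it was -0.99 ± 0.24 with the term (edgeR adjusted p = 0.0778).

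The other alpha-type globin, hbae1, was the most abundant of the 7 genes in all 10 libraries. It had 2087 and 3249 RPKM in mutants, 3878 and 6419 RPKM in siblings and 2332 and 6549.7 RPKM in controls. Replicate 2 was the higher in every group, mutants lay below siblings in RPKM, and the mutant and control ranges overlapped. On the scale of the fit mutant replicate 2 (5772 scaled reads) lay above sibling replicate 1 (3548). The spread between replicates was wide: 2668 ± 822 RPKM in mutants, 5149 ± 1796 RPKM in siblings and 4441 ± 2983 RPKM in controls (SD, n = 2 each). The log2 fold change over siblings was -0.97 without the replicate term (edgeR adjusted p = 1.0) and -0.89 ± 0.25 (SE) with it (edgeR adjusted p = 0.127), and it was -0.77 and -1.03 within replicates 1 and 2. Over controls it was -0.12 within replicate 1 and -1.07 within replicate 2, a difference between replicates larger than the fitted change of -0.61 (edgeR adjusted p = 0.187 with the term).

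**Figure D1:**
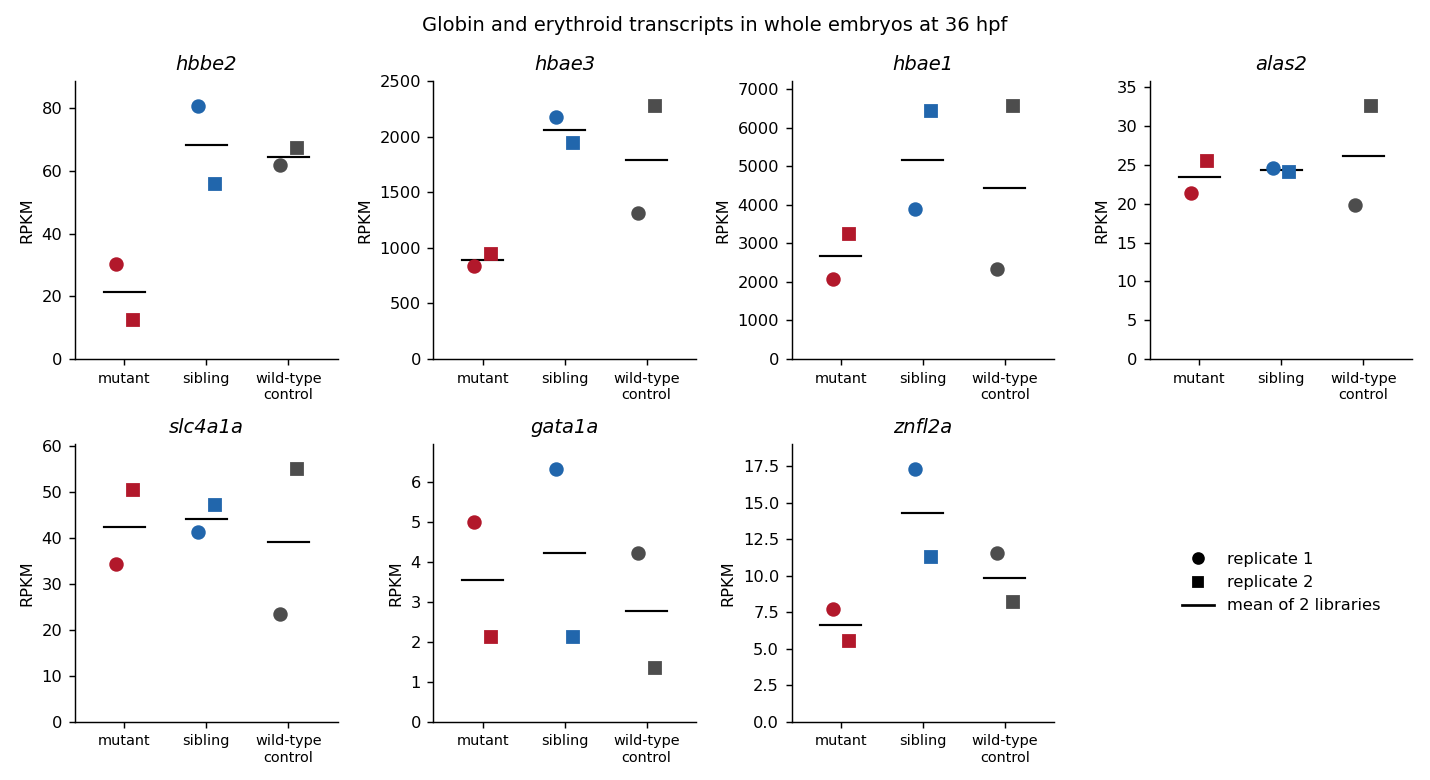
RPKM of the 7 genes (vertical axes) in the 6 whole-embryo libraries, with mutants left of siblings and wild-type controls; circles are replicate 1, squares replicate 2 and lines the mean of 2 libraries. Mutants lie below both other groups in hbbe2 (30.3 and 12.6 RPKM) and znfl2a (7.70 and 5.49 RPKM). In RPKM though not on the scale of the fit, they also do in hbae3 (834 and 950.02 RPKM). The groups overlap in alas2, slc4a1a and gata1a.

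Neighbouring globins of the 2 clusters were read beside these 3 genes. On chromosome 12 the other beta-type globin, hbbe3, had 870.5 and 936 RPKM in mutants, 1292 and 972 RPKM in siblings and 729.7 and 943 RPKM in controls, with mutants inside the range of controls and just below that of siblings. Its log2 fold change over siblings was -0.28 ± 0.19 (edgeR adjusted p = 0.423 with the replicate term), against -1.69 for hbbe2; the difference between the 2 genes was not tested. On chromosome 3, the more abundant record of hbbe1.1 had 919 and 1102 RPKM in mutants, 2012 and 2587 RPKM in siblings and 1277 and 3466 RPKM in controls. Mutants were the lowest group in RPKM for this record, and its log2 fold change over siblings of -1.12 ± 0.32 did not pass the threshold (edgeR adjusted p = 0.132 with the term). The other record of hbbe1.1 had 723 and 971 RPKM in mutants and 1527 and 2283 RPKM in siblings. In controls it had 690 and 2675 RPKM, so control replicate 1 lay below both mutant libraries. Of 11 other globin genes in the files 4 were abundant enough to be tested: hbbe3, hbbe1.1 and the cytoglobin and myoglobin genes cygb1 and mb. None was called over siblings or controls (median -0.07 over siblings with the term). With the term 1.74% and 3.46% of all genes were called in these comparisons.

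The enzyme gene alas2 showed no such separation. It had 21.4 and 25.5 RPKM in mutants, 24.7 and 24.05 RPKM in siblings and 19.9 and 32.6 RPKM in controls. Every group overlapped the others. The log2 fold change of mutants over siblings was -0.02 ± 0.19 with the replicate term (edgeR adjusted p = 0.955) and -0.14 ± 0.19 over controls (edgeR adjusted p = 0.655).

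The band 3 gene slc4a1a followed the same pattern, with 34.4 and 50.3 RPKM in mutants, 41.3 and 47.0 RPKM in siblings and 23.4 and 55.0 RPKM in controls. Replicate 2 was the higher in each group and the groups overlapped. Over siblings its log2 fold change was -0.06 ± 0.25 with the replicate term (edgeR adjusted p = 0.921) and 0.18 ± 0.25 over controls (edgeR adjusted p = 0.677). Over controls its sign differed between replicates, 0.59 within replicate 1 and -0.19 within replicate 2.

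The regulator gata1a was the least abundant of the 7 genes in all 10 libraries. It had 4.99 and 2.11 RPKM in mutants, 6.33 and 2.11 RPKM in siblings and 4.22 and 1.34 RPKM in controls, from 242 to 1480 reads a library. Here the replicate number separated the libraries more than the genotype did: replicate 1 was above replicate 2 in all 3 groups, the opposite order to hbae1 and slc4a1a. Over siblings its log2 fold change was -0.13 ± 0.17 with the replicate term (edgeR adjusted p = 0.670). Over controls the change was 0.43 ± 0.17 (edgeR adjusted p = 0.178), with 0.28 and 0.59 within replicates 1 and 2.

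The zinc finger-like gene znfl2a was the member that passed the threshold between mutants and siblings, in the fit with the replicate term and not in the fit without it. It had 7.70 and 5.49 RPKM in mutants, 17.3 and 11.2 RPKM in siblings and 11.5 and 8.19 RPKM in controls, from 534 to 2244 reads a library. Both mutant libraries lay below both of each other group, and the sibling library was above the control library of the same number. The mean was 6.60 ± 1.56 RPKM in mutants, 14.3 ± 4.28 RPKM in siblings and 9.85 ± 2.36 RPKM in controls (SD, n = 2 each). With the replicate term it fell by 1.06 ± 0.14 (SE) on the log2 scale over siblings (edgeR adjusted p = 0.0374), with -1.04 and -1.08 within replicates 1 and 2; without the term the change was -1.07 (edgeR adjusted p = 0.791). Over controls the change was -0.59 ± 0.14 (edgeR adjusted p = 0.0744 with the term).

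Counted over the 7 genes, none passed between mutants and siblings without the replicate term, as for all genes: 0% of 10147 were called by edgeR, with 534 at an unadjusted p under 0.05 and 149 called by DESeq2, hbbe2 among them. With the term 1 of 7 was called, against 1.74% of all genes (177, of which 118 were higher and 59 lower, or 126 and 132 with the authors' totals as library sizes); those lower in mutants were 0.581% of all genes. Within both replicate numbers 5 of 7 were lower in mutants (the 3 globins, gata1a and znfl2a), as were 37.9% of all genes. On the scale of the fit (reads with TMM scaling), both mutant libraries lay below both sibling libraries for 3 of 7, hbbe2, hbae3 and znfl2a, and for 17.1% of all genes. The median log2 fold change of the 7 genes was -0.89 and that of all genes -0.00 with the term. These counts are small, and the genes were not chosen at random.

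The calls with the replicate term depended on single libraries. Without either control library, which enters the estimate of the spread, hbbe2, hbae3, hbae1 and znfl2a all passed between mutants and siblings: the edgeR adjusted p was 0.00637, 0.00427, 0.0127 and 0.00392 without control replicate 1, and 0.00625, 0.00358, 0.00827 and 0.00389 without control replicate 2. In these 2 fits 21.8% and 21.1% of all genes were called as well, against 1.74% with all libraries. The call of znfl2a was lost without either mutant library or either sibling library, and its log2 fold change then lay between -1.10 and -1.04. These fits leave 1 library in a group and called few or no genes at all. The loss of a call in them therefore cannot be read as a result about znfl2a. Without mutant replicate 1, hbbe2 was the one member called (log2 -2.35, edgeR adjusted p = 0.0404), as were 0.808% of all genes.

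Between mutants and controls, which share the mutant libraries with the comparison above, no member was called in either fit. Over all genes 0% were called by edgeR without the term, with 667 at an unadjusted p under 0.05 and 194 called by DESeq2 (hbbe2 among them), and 3.46% with it (351). Within both replicate numbers 4 of 7 members were lower in mutants (the 3 globins and znfl2a), as were 34.1% of all genes. Both mutant libraries lay below both control libraries, on the scale of the fit, for hbbe2 and znfl2a and for 16% of all genes. The calls again turned on control libraries: without control replicate 1, hbbe2, hbae3, hbae1, alas2 and znfl2a passed with the term (edgeR adjusted p = 0.00594, 0.00463, 0.0180, 0.0433 and 0.0316), with alas2 at a log2 fold change of -0.44; so did 23.2% of all genes. Without control replicate 2, hbbe2, slc4a1a and znfl2a passed (edgeR adjusted p = 0.0339, 0.0327 and 0.0494), with slc4a1a higher in mutants at 0.65, as did 16.8% of all genes. Without mutant replicate 1, hbbe2 passed (log2 -2.34, edgeR adjusted p = 0.0290), as did 1.02% of all genes.

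Siblings and controls did not differ past the threshold in any of the 7 genes. The log2 fold change of siblings over controls with the replicate term was -0.03 for hbbe2, 0.19 for hbae3, 0.28 for hbae1, -0.12 for alas2 and 0.23 for slc4a1a. The 2 largest were 0.56 ± 0.17 for gata1a and 0.47 ± 0.13 for znfl2a (edgeR adjusted p = 0.565 each). Both were higher in siblings within both replicate numbers, as were 2751 of all 10147 genes. Of all genes 0% were called by edgeR in either fit, with 99 at an unadjusted p under 0.05 without the term and 878 with it, and DESeq2 called 12 and 98. None of the 7 was lower in siblings within both replicate numbers, against 28.5% of all genes.

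**Figure D2:**
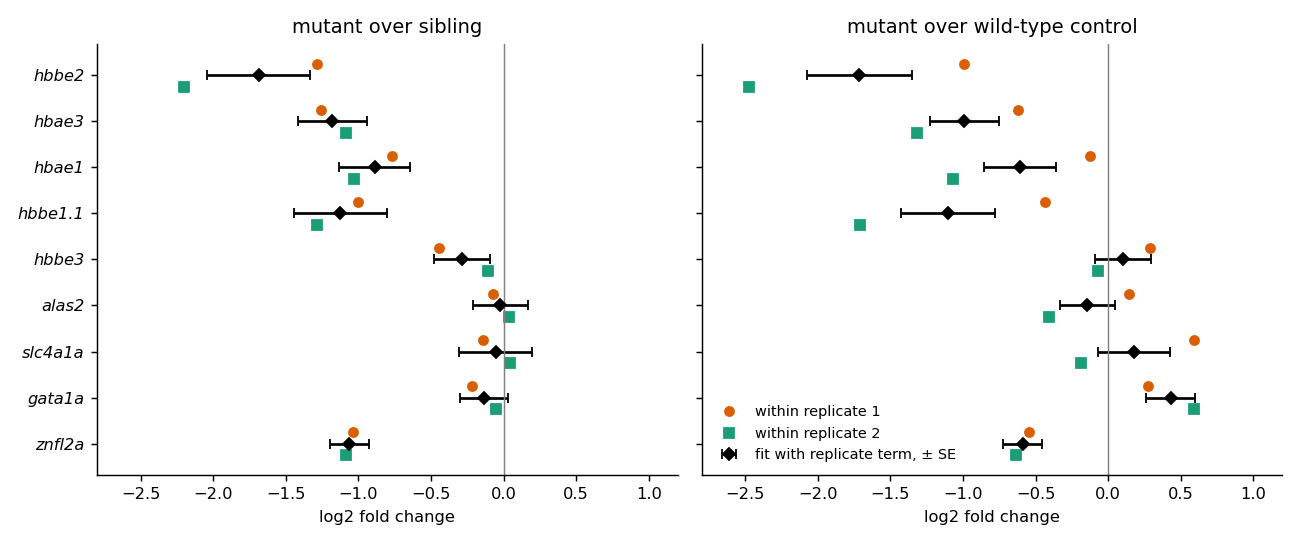
Log2 fold changes (horizontal axes) of the 7 genes and of the globins hbbe1.1 and hbbe3, for mutants over siblings (left) and mutants over wild-type controls (right). Diamonds with bars are the fit with the replicate term ± SE, circles and squares the difference within replicate 1 and replicate 2; over siblings hbbe2 lies at -1.69 and hbbe3 at -0.28, and alas2, slc4a1a and gata1a lie between -0.13 and -0.02.

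Ratios of RPKM within 1 library do not depend on that library's total or on its scaling. The ratios given here were chosen after values were seen, and no test was made of them. Of 14 ratios computed, mutant libraries lay below all others in 6 and overlapped them in 8. These ratios share genes with one another, so they are not separate results. How often mutant libraries lie below all others in ratios of other genes was not computed. The ratio of hbbe2 to its neighbour hbbe3 was 0.0348 and 0.0134 in whole mutants, 0.0624 and 0.0576 in siblings and 0.0848 and 0.0713 in controls. It was 0.0299 in the mutant nucleus and 0.0177 in the mutant cytoplasm, against 0.0676 in the sibling nucleus and 0.0589 in the sibling cytoplasm. All 4 mutant libraries lay below all 6 others. This was not particular to hbbe2. The ratio of hbae3 to hbbe3 was 0.93 to 1.02 in mutant libraries and 1.55 to 2.41 in the others. That of the more abundant record of hbbe1.1 to hbbe3 was 1.06 to 1.45 and 1.56 to 3.68, whereas that of hbae1 to hbbe3 overlapped. The other record of hbbe1.1 did not separate the groups. It lay below hbbe3 in control replicate 1 (690 and 729.7 RPKM) and above it in mutant replicate 2 (971 and 936 RPKM).

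The globin hbae3 stood in a lower ratio to the heme enzyme gene alas2 in every mutant library as well. The ratio was 38.9 and 37.2 in whole mutants, 88.3 and 80.8 in siblings and 66.1 and 69.9 in controls. In the fractions it was 61.1 in the mutant nucleus and 37.8 in the mutant cytoplasm, against 77.3 in the sibling nucleus and 72.1 in the sibling cytoplasm. The wide range of hbae3 in controls (1315 and 2275 RPKM) was not seen in this ratio.

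For hbae1 over slc4a1a, the ratio was 60.7 and 64.5 in whole mutants, 93.8 and 136 in siblings and 99.8 and 119 in controls. It was 39.6 and 48.9 in the mutant nucleus and cytoplasm, and 108 and 116 in those of siblings, so that the 4 mutant libraries again were the lowest. Other ratios with hbae1 overlapped: over alas2 it was 97.3 and 127 in whole mutants, 157 and 267 in siblings and 117 and 201 in controls, and over hbbe3 it was 2.40 and 3.47 in whole mutants, 3.003 and 6.60 in siblings and 3.20 and 6.95 in controls. The ratios of hbbe2 and of hbae3 to hbae1 overlapped too. The ratio of slc4a1a to alas2, between 2 genes that are not globins, was 1.60 and 1.97 in whole mutants, 1.68 and 1.96 in siblings and 1.18 and 1.69 in controls, with overlap of all groups. Against alas2, gata1a followed replicate number rather than genotype: 0.233 and 0.0827 in mutants, 0.257 and 0.0879 in siblings and 0.213 and 0.0413 in controls.

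**Figure D3:**
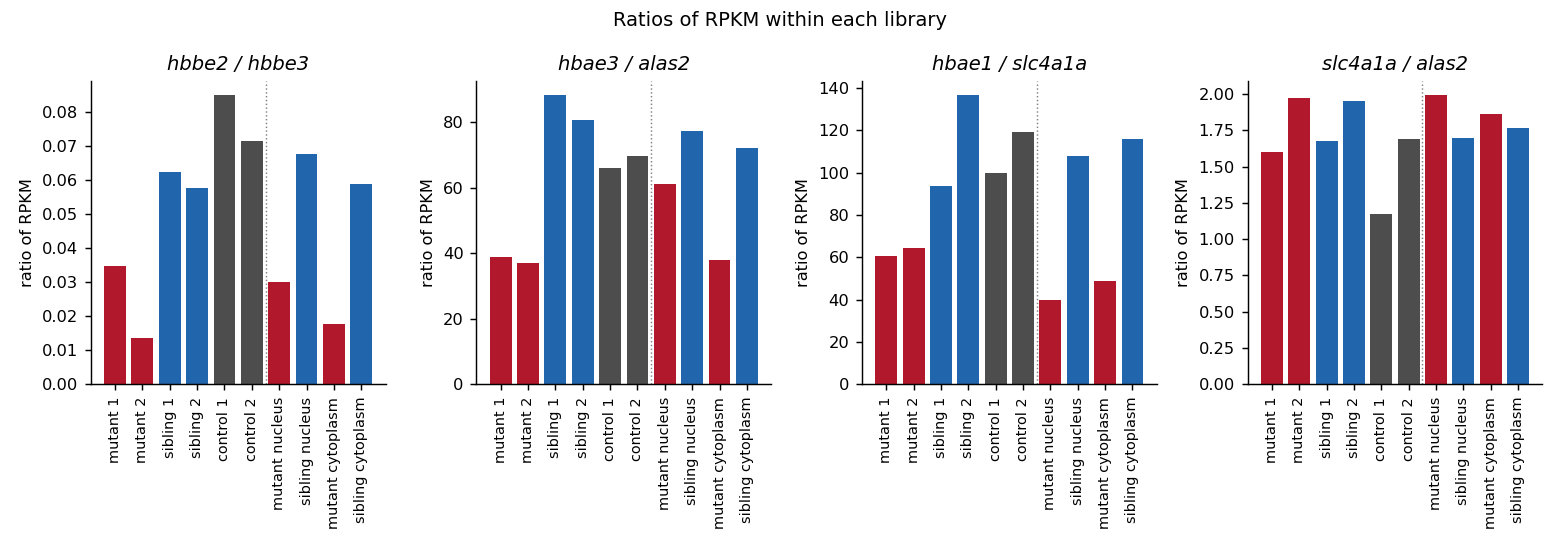
Ratios of RPKM within each of the 10 libraries (bars, vertical axes from 0), with whole embryos left of the dotted line and fractions right of it; red bars are mutants, blue bars siblings and grey bars wild-type controls. In the first 3 panels every mutant bar is lower than every other bar (at most 0.0348, 61.1 and 64.5); in slc4a1a over alas2 the groups overlap.

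All 7 transcripts had a lower RPKM in the nuclear than in the cytoplasmic library, in mutants and in siblings. Each fraction is 1 library, so there is no replicate check and no test, and values are log2 of nuclear over cytoplasmic RPKM after adding 1. The median of all 9702 genes was negative too, at -0.998 in mutants and -0.205 in siblings, and the share of genes lower in the nucleus was not counted. Between 1 and 99 genes had a lower ratio than hbae1, hbae3, alas2 or slc4a1a in mutants, and between 9 and 71 in siblings. For hbbe2 703 genes had a lower one in mutants and 72 in siblings. For gata1a and znfl2a these were 3246 and 2958 genes in mutants, and 825 and 596 in siblings. In mutants hbae1 had 134 RPKM in the nucleus and 2125 RPKM in the cytoplasm, a log2 ratio of -3.98. In siblings it had 444 and 4087 RPKM, a log2 ratio of -3.20.

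The log2 ratio of hbae3 was -3.08 in mutants (104 RPKM in the nucleus and 882 RPKM in the cytoplasm) and -2.94 in siblings (188 and 1442 RPKM). That of hbbe2 was -2.09 in mutants (3.18 and 16.8 RPKM) and -2.61 in siblings (8.15 and 54.9 RPKM). As deposited, hbbe2 was the one member with a ratio nearer to 0 in mutants than in siblings. Less the median of all genes in each genotype, all 7 were nearer to 0 in mutants (hbbe2 at -1.09 in mutants and -2.41 in siblings). For hbae1 the 2 values were nearly equal, -2.98 in mutants and -2.995 in siblings. For gata1a the order may depend on the added 1, without which its ratio was -2.995 in mutants and -2.12 in siblings, no median subtracted. The share of all genes nearer to 0 in mutants was not counted. The mutant nuclear value of hbbe2 rests on 63 reads. Without the added 1 its log2 ratio was -2.40 (exact 95% interval -2.81 to -2.02, counting error only), against -2.75 (-2.98 to -2.53) in siblings. These intervals overlap with no median subtracted. That overlap holds on this scale alone, since the medians of all genes (-0.998 in mutants and -0.205 in siblings) shift the 2 intervals by different amounts.

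The enzyme and membrane genes were as low in the nucleus. For alas2 the log2 ratio was -3.17 in mutants (1.70 RPKM in the nucleus and 23.3 RPKM in the cytoplasm) and -2.62 in siblings (2.42 and 20.0 RPKM). For slc4a1a it was -3.34 in mutants (3.38 and 43.4 RPKM) and -2.83 in siblings (4.12 and 35.3 RPKM). Both genes were thus close to the alpha-type globins in their distribution, at levels far below theirs.

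The genes gata1a and znfl2a were less extreme on this scale, which the added 1 compresses at their low levels. The log2 ratio of gata1a was -1.28 in mutants (0.259 RPKM in the nucleus and 2.06 RPKM in the cytoplasm) and -0.89 in siblings (0.343 and 1.49 RPKM). Without the added 1 it was -2.995 in mutants (exact 95% interval -3.84 to -2.25, from 16 nuclear reads) and -2.12 in siblings (-2.83 to -1.47, from 24 nuclear reads). The log2 ratio of znfl2a was -1.34 in mutants (1.81 and 6.11 RPKM) and -1.06 in siblings (3.34 and 8.08 RPKM).

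The nuclear library of mutants was low over all genes in RPKM, which is scaled by the authors' total. Listed reads were 19.2% of that total in the mutant nucleus and 33.5% in the sibling nucleus. In the cytoplasm they were 41.8% in mutants and 41.7% in siblings. Nuclear RPKM of the 2 genotypes thus differ in scaling as well, and the part of this in the ratios was not tested. The median log2 ratio of nucleus over cytoplasm over all 9702 genes was -0.998 in mutants and -0.205 in siblings. At a ratio of -1 or less stood 7 of 7 members and 49.9% of all genes in mutants, and 6 of 7 members (all but gata1a) and 7.03% of all genes in siblings. Relative to the median of all genes, the median of the 7 members was -2.08 in mutants and -2.41 in siblings.

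Within the cytoplasm, hbbe2 was again the member with the largest difference between genotypes. It had 16.8 RPKM in mutants and 54.9 RPKM in siblings, a log2 ratio of -1.65 with the added 1, and 20 of 9702 genes had a lower one. The ratio was -0.94 for hbae1, -0.71 for hbae3 and -0.35 for znfl2a, and it was 0.21 for alas2, 0.29 for slc4a1a and 0.30 for gata1a. The 3 globins and znfl2a were thus lower in mutants and the other 3 genes were not, around a median of 0.02 over all genes. One member, hbbe2, stood at -1 or less, against 1.37% of all genes.

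Within the nucleus the log2 ratio of mutants over siblings was -1.72 for hbae1, -1.13 for hbbe2, -0.85 for hbae3, -0.63 for znfl2a, -0.34 for alas2, -0.23 for slc4a1a and -0.09 for gata1a. All 7 were below 0, and so was the median of all genes, at -0.79. At -1 or less stood 2 of 7 members and 36.9% of all genes. Only the 3 globins lay below that median, and they did so to different degrees. Less the median, hbae1 was at -0.93, hbbe2 at -0.34 and hbae3 at -0.06. Of all genes 7.35%, 29.0% and 46.5% had a lower ratio than these, so hbae3 lay near the middle. After subtracting the median of all genes, the median of the 7 members was 0.16. With listed reads as the total, and no median subtracted, it was -0.05.

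**Figure D4:**
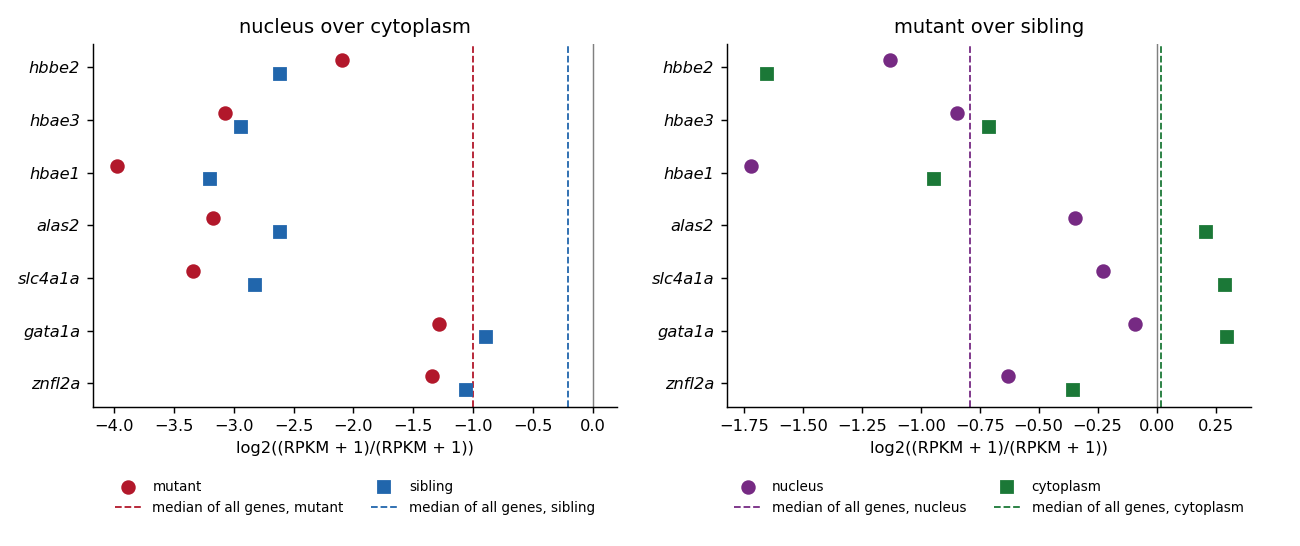
Log2 ratios of RPKM + 1 (horizontal axes) for the 7 genes in the 4 fraction libraries: nucleus over cytoplasm within mutants (circles) and siblings (squares) on the left, and mutants over siblings within the nucleus (circles) and cytoplasm (squares) on the right. Dashed lines are medians of all 9702 genes; hbae1 has the lowest nuclear share in both genotypes (-3.98 in mutants, -3.20 in siblings).

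The order of the 7 genes by RPKM was nearly fixed. In all 10 libraries hbae1 came first, hbae3 second and gata1a last. The place of hbbe2 differed by genotype: it ranked 3 in all 6 sibling and control libraries and 4 or 5 in the 4 mutant libraries, where slc4a1a ranked 3. In mutants hbbe2 and alas2 exchanged places between replicates, at 30.3 and 12.6 RPKM for hbbe2 and 21.4 and 25.5 RPKM for alas2, so these neighbours in the order do not differ beyond their spread.

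Other genes linked to red cells were read from lists chosen with earlier results of these data known. Some of them, such as the housekeeping gene alas1, are transcribed in other tissues too. Their whole-embryo values are therefore not values of red cells alone. Of 13 heme synthesis genes tested besides alas2, none was called between mutants and siblings with the replicate term, and their median log2 fold change was 0.05. The 3 most abundant of them were tspo, a mitochondrial porphyrin-binding protein gene, at 0.20 ± 0.14, alas1, the housekeeping counterpart of alas2, at 0.20 ± 0.14, and urod, a later enzyme of the pathway, at -0.13 ± 0.14. Of 14 genes of iron uptake and iron-sulfur assembly none was called (median 0.08), with fth1a (ferritin heavy chain) at 0.38 ± 0.18, tfa (transferrin) at -0.10 ± 0.30 and glrx5 (a glutaredoxin of iron-sulfur assembly, whose loss causes anemia in zebrafish) at 0.43 ± 0.12. Of 19 genes of the red cell membrane, skeleton and enzymes none was called (median 0.01), with prdx2, a peroxiredoxin abundant in red cells, at -0.40 ± 0.29, cahz, a carbonic anhydrase, at -0.24 ± 0.28 and tmod4, a tropomodulin, at 0.29 ± 0.11. In these 3 lists no value between groups passed, over siblings or over controls. With the term 1.74% of all genes were called over siblings and 3.46% over controls, so a list of this size may well hold no call. An unadjusted edgeR p under 0.05 over siblings with the term was met by 4 of 13, 1 of 14 and 4 of 19 genes, and by 2359 of all 10147.

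Among 26 further regulators of red cell genes, 1 was higher and 2 were lower in mutants than in siblings with the replicate term by edgeR, where 1.74% of all genes were called; without the term edgeR called none of them and DESeq2 called bcl11ab (DESeq2 adjusted p = 3.39e-05) and foxo3b (0.0309). The median of the list was 0.03. The 2 lower ones encode the zinc finger factors Bcl11aa and Bcl11ab, whose mammalian counterpart BCL11A represses embryonic and fetal globin genes in mice and humans. Which tissue their transcripts came from was not determined. The gene bcl11ab had 2.34 and 1.97 RPKM in mutants, 14.6 and 7.69 RPKM in siblings and 11.3 and 9.77 RPKM in controls, and fell by 2.27 ± 0.20 over siblings (edgeR adjusted p = 0.0147 with the term, 0.430 without it). The gene bcl11aa had 1.78 and 1.81 RPKM in mutants, 6.23 and 3.998 RPKM in siblings and 5.84 and 5.67 RPKM in controls, and fell by 1.45 ± 0.18 over siblings (edgeR adjusted p = 0.0364 with the term, 0.875 without it). Among whole-embryo libraries, those of mutants were the lowest in RPKM for both genes. On the scale of the fit, both mutant libraries lay below both sibling libraries for 17.1% of all genes. They lay below both control libraries for 16%.

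The one higher regulator, foxo3b, a forkhead factor whose mammalian counterpart acts in red cell maturation in mice, had 19.2 and 10.8 RPKM in mutants, 6.75 and 4.59 RPKM in siblings and 6.73 and 5.85 RPKM in controls. It rose by 1.43 ± 0.20 over siblings (edgeR adjusted p = 0.0436 with the term, 0.667 without it). Its paralog foxo3a had 4.14 and 1.19 RPKM in mutants, 7.55 and 2.10 RPKM in siblings and 7.95 and 2.57 RPKM in controls. It was called over controls (-1.04 ± 0.13, edgeR adjusted p = 0.0296 with the term) and not over siblings (-0.81 ± 0.13, edgeR adjusted p = 0.0584); the difference between these 2 results was not tested. Over controls bcl11ab, bcl11aa and foxo3b passed as well (-2.30, -1.69 and 1.19 with the term). The most abundant regulators, ldb1a (-0.50 ± 0.16), tcf3a (-0.22 ± 0.13) and klf6a (0.45 ± 0.17), did not pass over siblings.

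With the term, the calls of bcl11aa and foxo3b over siblings were lost without either mutant library or either sibling library. Their log2 fold changes then lay between -1.69 and -1.19 for bcl11aa and between 1.12 and 1.69 for foxo3b. The call of bcl11ab held without mutant replicate 1 and was lost without mutant replicate 2, sibling replicate 1 or sibling replicate 2. Its log2 fold change in these fits lay between -2.54 and -1.98. Over controls the call of bcl11ab was lost without mutant replicate 2. Those of bcl11aa, foxo3b and foxo3a over controls were lost without either mutant library or either sibling library. All these fits leave 1 library in a group and called fewer genes of any kind, over siblings few or none. A lost call therefore cannot be read as a result about the gene.

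Of 12 genes of erythropoietin and cytokine signalling none was called over siblings or controls with the replicate term, against 1.74% and 3.46% of all genes. Their median was 0.17 over siblings. The anti-apoptotic gene bcl2l1 stood at 0.20 ± 0.21, the kinase gene pim1 at -0.09 ± 0.31 and the ligand gene kitlga at 0.19 ± 0.21.

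Markers of other cell types that arise beside red cells were read in the same libraries. These lists share genes with one another and with the regulators above. The genes tal1 and lmo2 are in the regulator and endothelial lists, fli1a in the endothelial and thrombocyte lists and nfe2 in the regulator and thrombocyte lists. Of 17 endothelial markers none was called over siblings or controls with the replicate term, against 1.74% and 3.46% of all genes. Their median was 0.05 over siblings, with ephb4a at 0.03 ± 0.12, fli1a at 0.05 ± 0.12 and cdh5 at 0.52 ± 0.18. Their summed level was 89.1 and 34.8 RPKM in mutants, 91.2 and 34.0 RPKM in siblings and 96.5 and 35.2 RPKM in controls, nearly equal within each replicate number, and none of the 19 was at 0 in a whole-embryo library. Of 3 thrombocyte markers tested, fli1a, f5 (0.19 ± 0.22) and nfe2 (0.86 ± 0.44), none was called; the defining marker itga2b was at 0 in all mutant and sibling whole-embryo libraries and at most 0.04 RPKM in controls.

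Most myeloid markers tested lay below 0 in mutants, and few were called. Their summed level over 20 genes was 95.9 and 79.9 RPKM in mutants, 135.0 and 115 RPKM in siblings and 158 and 136 RPKM in controls. It was lowest in both mutant libraries, and none of the genes was at 0 in a whole-embryo library. The most abundant of them in every whole-embryo library was lyz, so the sums follow that gene in large part. Sums without lyz were not made. Of 14 tested, 1 was called over siblings with the replicate term, against 1.74% of all genes. Over siblings 9 lay below 0 (median -0.24), as did 5077 of all 10147 genes. Over controls 11 of 14 lay below 0 (median -0.42), as did 5211 of all genes. All 11 were lower within both replicate numbers, as were 34.1% of all genes. The called one was lyz, lysozyme of neutrophils and macrophages, with 20.6 and 24.3 RPKM in mutants, 42.1 and 58.1 RPKM in siblings and 49.98 and 61.7 RPKM in controls; it fell by 1.11 ± 0.15 over siblings (edgeR adjusted p = 0.0409 with the term, 1.0 without it). That call was lost without either mutant library or either sibling library, in fits that called few or no genes at all. The log2 fold change of lyz then lay between -1.27 and -0.94. The next most abundant, cebpb (0.61 ± 0.19) and npsn (-0.97 ± 0.39), did not pass. Over controls lyz was lower (-1.32 ± 0.15) and mmp9, a matrix metalloproteinase gene, was higher (1.29 ± 0.18) with the term. Without either mutant library or either sibling library both calls were lost, in fits that called fewer genes of any kind. The part of the myeloid markers in the globin values was not tested.

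**Figure D5:**
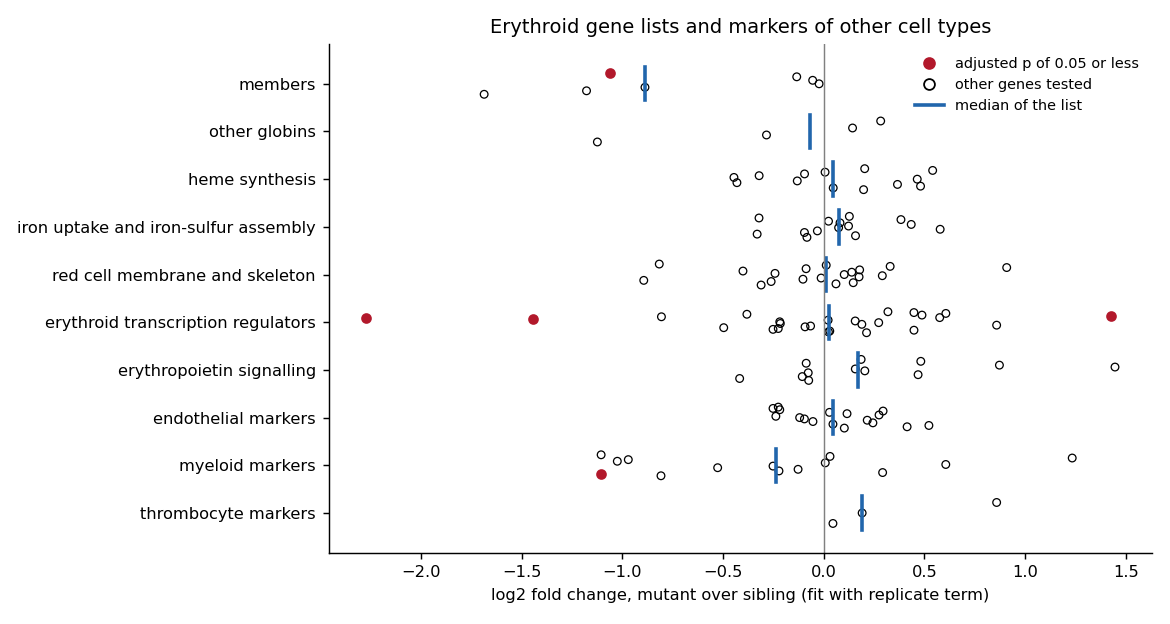
Log2 fold changes of mutants over siblings from the fit with the replicate term (horizontal axis) for every tested gene of each list (rows); filled red points passed the threshold, open points did not, and blue bars are list medians. The 7 genes have a median of -0.89, and the medians of the other lists lie between -0.24 (myeloid markers) and 0.19 (thrombocyte markers).

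Genes whose pattern was most like that of hbbe2, alas2 and gata1a were named from 4876 genes with a mean of 5 RPKM or more, by Pearson's r of log2(RPKM + 1) less each library's median over the 10 libraries. These values are a description. The libraries share the contrast of nucleus and cytoplasm, the replicate numbers and the genotypes, so a high r follows from any of them. For hbbe2 they were zgc:158409 (r = 0.921), tuba8l (0.920) and zgc:112992 (0.905). For alas2 they were nt5c2l1 (0.986), hao1 (0.983) and the carbonic anhydrase gene cahz (0.982), and among the 7 genes slc4a1a had 0.987 with alas2. For gata1a they were sec22ba (0.951), tp63 (0.929) and cyp2aa4 (0.928), and none of the other 6 genes exceeded 0.492 with it.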

How the data were processed

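Each deposited file holds 1 library, with whole-number read counts and RPKM per RefSeq transcript record, per the file headers. The deposited counts are not normalized; the authors' RPKM divides them by transcript length and by 1 total per file. Reads were aligned with TopHat2 2.0.8 to danRer7, per the submitters' processing notes. Neither the counting tool nor its use of strand is stated in the labels or headers, so overlapping genes may share reads. Whole-embryo libraries were strand-specific (dUTP) from Trizol-extracted RNA and fraction libraries unstranded, per the labels' protocols.

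Each symbol is represented by its record with most reads; 10147 genes whose RPKM averaged at least 1 in the 6 whole-embryo libraries were tested. edgeR 4.0.16 (quasi-likelihood test, TMM) in R 4.3.3 fitted 3 groups of 2 libraries. The test gives no standard error, so each SE is the absolute log2 fold change divided by the square root of the F statistic. The planned main fit had no replicate term (3 residual degrees of freedom) and the planned second fit had one (2 residual degrees of freedom); pairing rests on the correlations of same-numbered libraries. DESeq2 1.42.0 and limma 3.58.1 were alternatives, as were other scalings, filters and pseudocounts, and leaving out each library. Scripts were tested on simulated data. The 7 genes, the lists and the tests were chosen with earlier results of these data known. Named from each list are genes past the threshold in either fit and the 3 with the highest mean RPKM. All 7 genes matched the RefSeq name table of another build, used for names alone.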

Additional observations from a re-analysis of the deposited data

How the results depend on the processing

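With 2 libraries a group, the fit without the replicate term has 3 residual degrees of freedom and that with it 2, and depth limits gata1a in the nuclear libraries. The globins hbbe2 and hbae3 and znfl2a stayed below 0 in mutants over siblings in all 35 alternatives, 17 without and 18 with the replicate term. hbbe2 was called in 1 and 5 of them, hbae3 in 0 and 3, hbae1 in 0 and 3 and znfl2a in 0 and 14. In the sentences that follow, sizes are log2 and a lone library left in a group is assumed to vary like the others.

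The replicate block (the term for the paired replicate numbers) moved the count of genes called in mutants over siblings to 177, from 0, and over controls to 351, from 0. With the block and another setting the counts over siblings and over controls were 184 and 361 with DESeq2 size factors, 189 and 363 with library sizes alone, 177 and 353 with TMM without globins, 206 and 368 with no filter, 153 and 285 at a mean RPKM of 5 or more, 1196 and 1721 by DESeq2, 182 and 358 with all records and 258 and 419 with the authors' totals. By limma with the block they were 279 and 446, 238 and 343, and 178 and 297 at pseudocounts of 1, 0.1 and 5. Without the block, DESeq2 called 149 and 194, library sizes alone called 1 over siblings, and for siblings over controls DESeq2 called 12 without and 98 with the block. The share of calls that were higher in mutants than in siblings was 66.7% with the block and 48.8% with the authors' totals, 51.6% by DESeq2, 52.0% and 48.3% by limma at pseudocounts of 1 and 0.1; over controls it was 55.3% and, by limma at a pseudocount of 5, 76.1%. Members called over siblings, 0 without the block, were 1 by DESeq2; with the block they were 4 by DESeq2, 2 by limma at a pseudocount of 1 and 1 in the other settings that keep all libraries. Over controls they were 1 by DESeq2 without the block, and with it 3 by DESeq2, 1 by limma at a pseudocount of 1 and 1 with the authors' totals. Leaving out 1 library, the range over both fits was 0 to 2217 genes and 0 to 4 members over siblings, 0 to 2358 genes and 0 to 5 members over controls, and 0 to 403 genes for siblings over controls; without the block no gene was called.

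Values near 0 changed sign. Over siblings, DESeq2 and its size factors put alas2 at 0.0166 and slc4a1a at 0.0105 without the block. Over controls, slc4a1a, -0.01 in the fit without the block, was 0.011 by DESeq2 and its size factors, 0.0644 with library sizes alone, 0.21, 0.21 and 0.18 by limma at pseudocounts of 1, 0.1 and 5 and 0.11 with the authors' totals; with the block it was 0.18, 0.20 with DESeq2 size factors, library sizes alone or DESeq2, 0.18 with TMM without globins, no filter or all records, 0.11 at 5 RPKM and 0.19 with the authors' totals. For siblings over controls, slc4a1a (-0.00) was 0.0005 by DESeq2 and its size factors, 0.0731 with library sizes alone, 0.0111 with no filter, 0.29, 0.30 and 0.25 by limma, 0.0002 with all records and 0.17 with the authors' totals; with the block it was 0.23 (also with TMM without globins and all records), 0.24 with DESeq2, its size factors or no filter, 0.27 with library sizes alone, 0.21 at 5 RPKM and 0.29 with the authors' totals. In the same comparison hbbe2 (-0.06) was 0.0575, 0.0579 and 0.0554 by limma, without or with the block, and 0.0806 with the authors' totals, 0.01 with the block and library sizes alone and 0.02 with the block and the authors' totals, and hbae3 (0.02) was -0.0076 at 5 RPKM. The cause was not tested.

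Leaving out 1 library at a time gave these ranges over both fits. Over siblings they were -2.35 to -1.17 for hbbe2, -1.75 to -0.66 for hbae3, -1.89 to 0.15 for hbae1, -0.65 to 0.57 for alas2, -0.86 to 0.71 for slc4a1a and -0.41 to 0.17 for gata1a. Over controls they were -2.34 to -1.14 for hbbe2, -1.74 to -0.01 for hbae3 (without control replicates 1 and 2 in that order), -1.78 to 0.80 for hbae1, -0.89 to 0.80 for alas2 and -0.85 to 1.45 for slc4a1a. For siblings over controls they were -0.49 to 0.56 for hbbe2, -0.60 to 1.13 for hbae3, -1.02 to 1.76 for hbae1, -0.85 to 0.80 for alas2 and -0.72 to 1.46 for slc4a1a.

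In the fractions, the median log2 ratio of nucleus over cytoplasm of the 7 genes in mutants, -3.08, was -2.08 at a pseudocount of 5, -1.96 with listed reads as the total, -2.08 less the median of all genes and -1.87 less that of genes at 5 RPKM or more. In siblings, -2.62, it was -2.94 and -2.14 at pseudocounts of 0.1 and 5, and -2.41 and -2.31 less those medians. Mutants over siblings in the nucleus, -0.63, was -0.85 and -0.29 at those pseudocounts, -0.05248 with listed reads as the total, and 0.16 and 0.22 less those medians; in the cytoplasm, -0.35, it was -0.24 at a pseudocount of 5.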

Other observations

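Adult globin genes were near the limit of detection at this age. The beta-type genes ba1, ba2 and ba1l and the alpha-type gene hbaa1 had at most 0.347 RPKM in whole mutants and at most 0.276 RPKM in whole siblings, and at most 0.376 RPKM in mutant cytoplasm and 0.406 RPKM in sibling cytoplasm. In control replicate 2 they were higher, at 0.718 RPKM for ba1, 0.706 RPKM for ba2, 1.12 RPKM for ba1l and 2.29 RPKM for hbaa1, while control replicate 1 had 0 for ba1 and ba2, 0.06 RPKM for ba1l and at most 0.165 RPKM for hbaa1. Control replicate 2 also had the highest hbae1 (6549.7 RPKM) and hbae3 (2275 RPKM) of all 10 libraries. In every library the RPKM of ba1 and ba2 differed only by their record lengths, 603 and 614 bases. The 2 records thus had equal read counts throughout and are not separate values.

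Of globin-related genes outside red cells, the cytoglobin gene cygb1 had 15.7 and 1.24 RPKM in mutants, 10.9 and 1.34 RPKM in siblings and 8.44 and 1.34 RPKM in controls, and the myoglobin gene mb had 1.86 and 2.16 RPKM in mutants, 2.02 and 1.74 RPKM in siblings and 3.65 and 2.67 RPKM in controls. The replicate number separated cygb1 in all 3 groups. Unlike the embryonic globins, cygb1 had a higher RPKM in the nucleus than in the cytoplasm, 11.1 and 3.73 RPKM in mutants and 5.16 and 4.27 RPKM in siblings.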
